A study of Drosophila melanogaster with 9 samples.

Results

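Of the 6 hairpin libraries in a set of 9 Drosophila thorax libraries, 2 carried over 1000 raw reads of the yolk receptor gene yl, and they are described here against the other 4. The members were chosen by these raw reads of yl alone. The yl-high libraries were 412KD replicate 3 and RooKD replicate 1. The other hairpin libraries were 412KD replicates 1 and 2 and RooKD replicates 2 and 3, and each yl-high library was set against the others of its own hairpin group. Because the reads of yl, in the same libraries, chose the groups, all differences between the yl-high and the other libraries are given as a description, with no test. The nearest library above the threshold was RooKD replicate 1, with 2527 reads of yl, and the nearest below it was 412KD replicate 1, with 578.

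Each library was made from pooled thoraces of female flies on adult day 20 in the genetic background W1118 (BL5905). All flies, controls included, carried an shRNA under the Act5C driver, which is active in most tissues. The hairpin was directed against the retrotransposon 412 (412KD, 3 libraries) or roo (RooKD, 3 libraries), or it was a scrambled sequence (scramble, 3 libraries). A pool mixes several flies, so the share of flies behind a signal is not known, and nothing in the labels tells whether pools of 1 group were reared apart.

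The female germline of Drosophila lies in the abdomen, in ovarioles where nurse cells fill the oocyte with maternal RNA and a layer of somatic follicle cells lays down the eggshell. Follicle cells make the vitelline membrane first and the chorion in the last stages, with the chorion genes amplified in a pair of clusters on chromosomes X and 3L. The thorax holds flight muscle, fat body, part of the gut and the ventral nerve cord, and no germline.

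Total reads over the shared features ranged from 17547381 to 26170886 per library. Libraries were not merged, since a chi-square of the counts of any 2 libraries of 1 group, divided by its degrees of freedom, was 20.9 to 164.2. The targeted elements did not separate the groups. The internal part of 412 had 9 to 14 reads in 412KD libraries and 7 to 14 in scramble libraries. That of roo had 166 to 233 reads in RooKD and 175 to 293 in scramble. The reads of 412 were near the floor, and how reads of repeats were counted is not given. These counts therefore do not show whether the hairpins lowered their targets. Reepl1 had 131 reads in 412KD replicate 3 and 0 in RooKD replicate 1, against 121 and 137 in the other 412KD libraries, 0 in both other RooKD libraries and 149 to 213 in scramble. This gene separated RooKD from the rest but not 412KD from scramble. CG3117 separated 412KD, with 250 reads in 412KD replicate 3 and 6 in RooKD replicate 1, against 638 and 879 in the other 412KD libraries, 0 in both other RooKD libraries and 7 to 21 in scramble. CG8664 had 104 reads in 412KD replicate 3 and 3 in RooKD replicate 1, against 999 and 831 in the other 412KD libraries, 5 to 6 in the other RooKD libraries and 0 to 4 in scramble. For both of these 412KD replicate 3 lay above the RooKD and scramble libraries and below its own group. All 3 genes were chosen after their values were seen. On the first axis of a principal component analysis, which held 42.6% of the variance, the yl-high libraries lay at 66.3 and 54.0, the other hairpin libraries at 12.3, −10.3, −25.9 and −29.8, and the scramble libraries between −24.5 and −19.3.

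The 5 marker genes of the oocyte were at high levels in both yl-high libraries and low or absent in most of the rest. In what follows, values of the yl-high libraries are given for 412KD replicate 3 and then RooKD replicate 1, those of the other hairpin libraries for 412KD replicates 1 and 2 and then RooKD replicates 2 and 3, and those of scramble for replicates 1 to 3. The gene yl (chromosome X, 14193214 to 14199958, build dm6), which encodes the receptor that takes yolk proteins into the oocyte, had 4945 and 2527 reads in the yl-high libraries, against 578, 12, 0 and 0 in the other hairpin libraries and 3, 0 and 0 in scramble. The gene dhd (chromosome X, 5312171 to 5313125), a thioredoxin of the egg that acts on sperm chromatin after fertilization, had 5138 and 3908 reads in the yl-high libraries, against 304, 25, 2 and 8 in the other hairpin libraries and 8, 3 and 2 in scramble. For both genes the yl-high libraries lay above every other library, and 412KD replicate 1 came next.

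The cytoplasmic poly(A) polymerase gene wisp had 2559 and 1562 reads in the yl-high libraries, against 205, 44, 22 and 18 in the other hairpin libraries and 21, 18 and 14 in scramble. The maternal alpha-tubulin gene alphaTub67C had 875 and 689 reads in the yl-high libraries, against 94, 14, 5 and 0 in the other hairpin libraries and 7, 11 and 5 in scramble. CycB, the mitotic cyclin stored in the egg, had 5893 and 4437 reads in the yl-high libraries, against 455, 103, 36 and 68 in the other hairpin libraries and 92, 70 and 60 in scramble. The groups did not overlap for any of the 5 markers. By the rule of size given with the counts over all features, each marker was among the 2.98% of tested features that were higher, in the contrast on which the libraries were chosen.

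Scaled to library size, dhd stood 28.5-fold higher in the yl-high 412KD library than in the other 412KD libraries together (95% interval 25.5 to 32.0) and 639-fold higher in the yl-high RooKD library than in the other RooKD libraries (347 to 1330). CycB stood 19.3-fold higher (17.7 to 21.1) within 412KD and 69.7-fold higher (57.4 to 85.6) within RooKD. The yl fold was 15.3 within 412KD (14.0 to 16.7). Within RooKD, where the others had no read, the lower limit of its 95% interval was 1120. These intervals cover counting error only. The folds within 412KD were set against a pair of unlike libraries: yl stood at 202 TMM-scaled CPM in 412KD replicate 3, against 30.0 in 412KD replicate 1 and 0.471 in 412KD replicate 2.

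**Figure D1:**
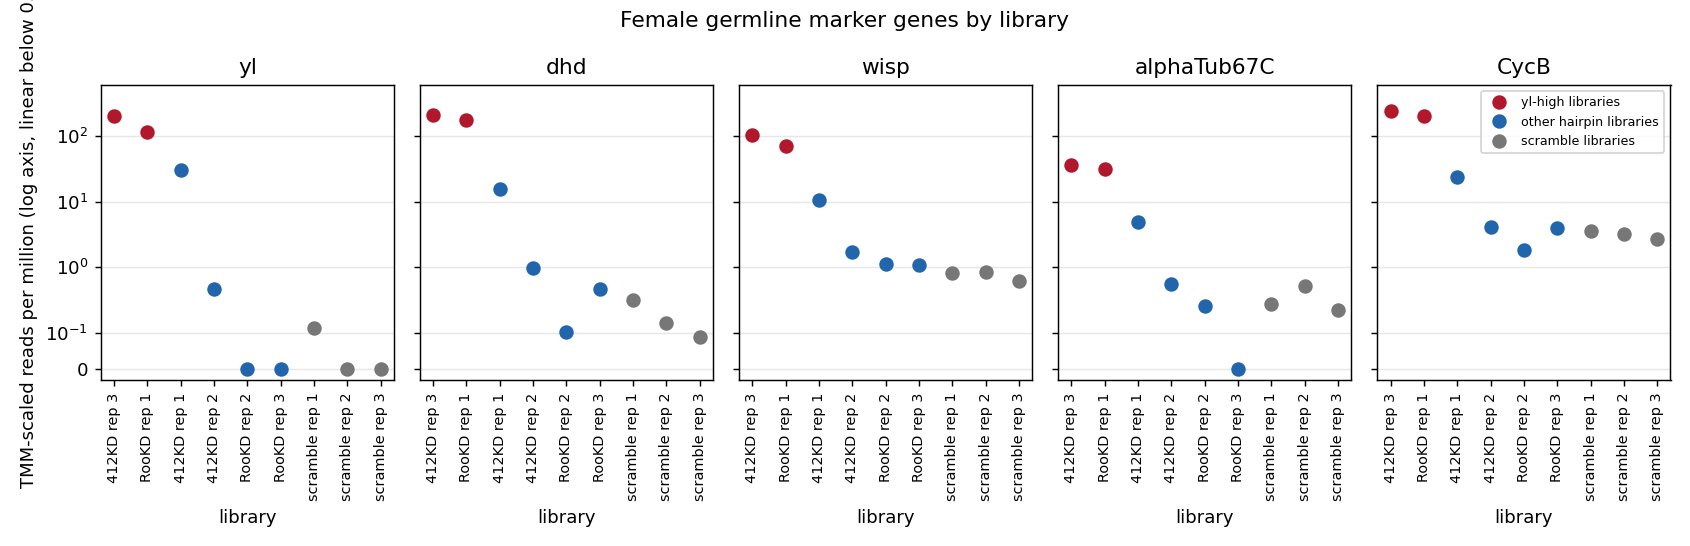
TMM-scaled CPM (counts scaled to library size; log axis, linear below 0.1) of the 5 marker genes in each library, with yl-high libraries in red, other hairpin libraries in blue and scramble in grey. Both yl-high libraries lie above every other library in all 5 panels, and 412KD replicate 1 comes next, at 30.0 for yl and 15.8 for dhd.

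Across the 10606 features tested in the 6 hairpin libraries, 316, or 2.98%, were higher by over 1 log2 unit in each yl-high library than in both other libraries of its hairpin group, and 9, or 0.0849%, were lower. The rule that chose the libraries used this contrast, and nothing is read from those shares. The same holds for the counts of list members given below. A feature with few reads elsewhere could enter the test only through the yl-high libraries. Of the 316, 314 were protein coding (99.4%, beside 95% of features tested) and 0 were repeat features, of which 83 were tested. They lay on chromosome 2L (66), 2R (57), 3L (67), 3R (70) and X (56). These were 20.9%, 18.0%, 21.2%, 22.2% and 17.7% of the 316, beside 17.9%, 20.4%, 19.1%, 24.7% and 16.1% of features tested. On chromosome 4 it was 0 of 91 tested. At 2.98% over all features, sets as small as these 91 or the 83 repeats can hold none without standing apart. The 316 features held 1.13% and 0.764% of all reads in the yl-high libraries, against 0.167%, 0.126%, 0.0848% and 0.0838% in the other hairpin libraries and 0.112%, 0.108% and 0.0960% in scramble. In 313 of the 316 both yl-high libraries also lay above every scramble library. These features had been picked for high values in the yl-high libraries, so this count was largely fixed in advance and is no support. In bulk RNA, more cells of a type in a pool and more RNA of these genes per cell cannot be told apart.

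Genes of egg activation and the oocyte cell cycle were nearly all higher. Of 20 tested members 19 were among the higher features, beside 2.98% of all features tested. The median log2 difference was 4.82 in the 6-library fit, against −0.02 over all features tested. The list holds the 5 markers, yl included, so its count and median draw in part on the reads that chose the libraries. The members cover the steps that carry the egg out of meiosis. The subunits of the PAN GU kinase, which triggers translation at egg activation, were all among them: gnu had 345 and 309 reads in the yl-high libraries, against 26, 5, 3 and 6 in the other hairpin libraries and 4, 0 and 1 in scramble. The kinase subunit gene png had 146 and 126 reads in the yl-high libraries, against 12, 9, 10 and 12 in the other hairpin libraries and 12, 11 and 8 in scramble. The Polo inhibitor gene mtrm had 814 and 597 reads in the yl-high libraries, against 40, 8, 1 and 3 in the other hairpin libraries and 4, 6 and 7 in scramble. BigH1, the linker histone of the early embryo, had 529 and 389 reads in the yl-high libraries, against 42, 3, 1 and 9 in the other hairpin libraries and 1, 1 and 0 in scramble.

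Members with a level in all libraries showed smaller differences. The translational repressor gene smg, which also clears maternal RNAs, had 5786 and 4202 reads in the yl-high libraries, against 1453, 1896, 1208 and 1279 in the other hairpin libraries and 1835, 1398 and 1566 in scramble, a log2 difference of 1.53 ± 0.14 (SE). The exception in the list was sra, a calcineurin regulator needed for egg activation that other tissues use too, with 2207 and 2006 reads in the yl-high libraries, against 2045, 2241, 1688 and 1270 in the other hairpin libraries and 3437, 2558 and 2637 in scramble. Its log2 difference was 0.00 ± 0.15 (SE), and its values in the yl-high libraries lay within those of the others.

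Maternal patterning genes were split. Of 29 tested members 11 were among the higher features, beside 2.98% of all features tested, and the median log2 difference was 0.87. Localized determinants of the egg were near 0 in most other libraries: bcd, the anterior determinant, had 352 and 201 reads in the yl-high libraries, against 14, 0, 0 and 0 in the other hairpin libraries and 0 in each scramble library. The pole plasm organizer osk had 1739 and 1618 reads in the yl-high libraries, against 132, 6, 6 and 3 in the other hairpin libraries and 2, 3 and 2 in scramble. The posterior determinant nos had 357 and 273 reads in the yl-high libraries, against 52, 8, 0 and 0 in the other hairpin libraries and 3, 1 and 0 in scramble.

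The most abundant members of the list showed no such gap. The RNA-binding protein gene sqd had 13206 and 10462 reads in the yl-high libraries, against 9223, 12712, 9344 and 11578 in the other hairpin libraries and 10953, 9239 and 9931 in scramble. The Dorsal transcription factor gene dl had a log2 difference of −0.47 ± 0.19 (SE) and its inhibitor cact one of −0.13 ± 0.14 (SE). The translational regulator gene tral, with 11700 and 7911 reads in the yl-high libraries, against 4798, 5937, 4177 and 4635 in the other hairpin libraries, lay above all of them by a log2 difference of 0.75 ± 0.18 (SE), short of the 1 log2 unit asked for. The signal gene grk, made in the oocyte, did not separate the groups, with 1750 and 1460 reads in the yl-high libraries, against 1292, 1721, 1236 and 1169 in the other hairpin libraries and 1939, 1387 and 1752 in scramble.

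Cell cycle and DNA replication genes were higher nearly throughout. Of 34 tested members 30 were among the higher features, beside 2.98% of all features tested, with a median log2 difference of 2.55. CycB, 1 of the 5 markers, is also in this list. CycA, the cyclin of S phase and mitotic entry, stood at 108 and 88.8 TMM-scaled CPM in the yl-high libraries, against 17.2, 5.65, 3.81 and 6.88 in the other hairpin libraries and 7.68, 8.45 and 6.56 in scramble. RnrS, the small subunit of ribonucleotide reductase, had 1224 and 1125 reads in the yl-high libraries, against 335, 348, 240 and 205 in the other hairpin libraries and 399, 438 and 253 in scramble. The Polo kinase gene polo had 953 and 815 reads in the yl-high libraries, against 140, 67, 19 and 35 in the other hairpin libraries and 86, 60 and 58 in scramble. The spindle checkpoint kinase gene Bub1 was among the 4 that did not pass, with a log2 difference of 0.36 ± 0.13 (SE). The others were aurB, geminin and CDC45L, each also above 0.

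Genes of germline stem cells and meiosis were split. Of 17 tested members 8 were among the higher features, beside 2.98% of all features tested, with a median of 0.96. The ovarian tumour gene otu had 1025 and 639 reads in the yl-high libraries, against 136, 16, 7 and 14 in the other hairpin libraries and 13, 19 and 4 in scramble. The germline gap junction gene zpg had 307 and 289 reads in the yl-high libraries, against 40, 2, 0 and 0 in the other hairpin libraries and 2, 0 and 0 in scramble. The differentiation factor bam, active in dividing cystocytes at the tip of the ovariole, had 57 and 58 reads in the yl-high libraries, against 2, 6, 1 and 1 in the other hairpin libraries and 3 in each scramble library. The growth regulator mei-P26, with 2918 and 2259 reads in the yl-high libraries, against 1716, 2732, 1873 and 2461 in the other hairpin libraries, showed a log2 difference of 0.00 ± 0.22 (SE).

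Genes of the piRNA pathway, which silences transposons in the germline with small RNAs, were also higher in part. Of 29 tested members 12 were among the higher features, beside 2.98% of all features tested, with a median of 1.35. The Argonaute gene piwi had 326 and 280 reads in the yl-high libraries, against 30, 19, 18 and 30 in the other hairpin libraries and 21, 32 and 18 in scramble. Its partner aub had 165 and 167 reads in the yl-high libraries, against 46, 18, 14 and 13 in the other hairpin libraries and 38, 19 and 19 in scramble. The Tudor domain gene krimp had 215 and 239 reads in the yl-high libraries, against 21, 20, 14 and 7 in the other hairpin libraries and 32, 15 and 14 in scramble. The germline piRNA cluster factor moon had 28 and 13 reads in the yl-high libraries and 1 read in all 7 other libraries together. The 4 most abundant members of the list, mino, tapas, papi and Nbr, had log2 differences of −0.18, −0.07, −0.16 and 0.19.

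**Figure D2:**
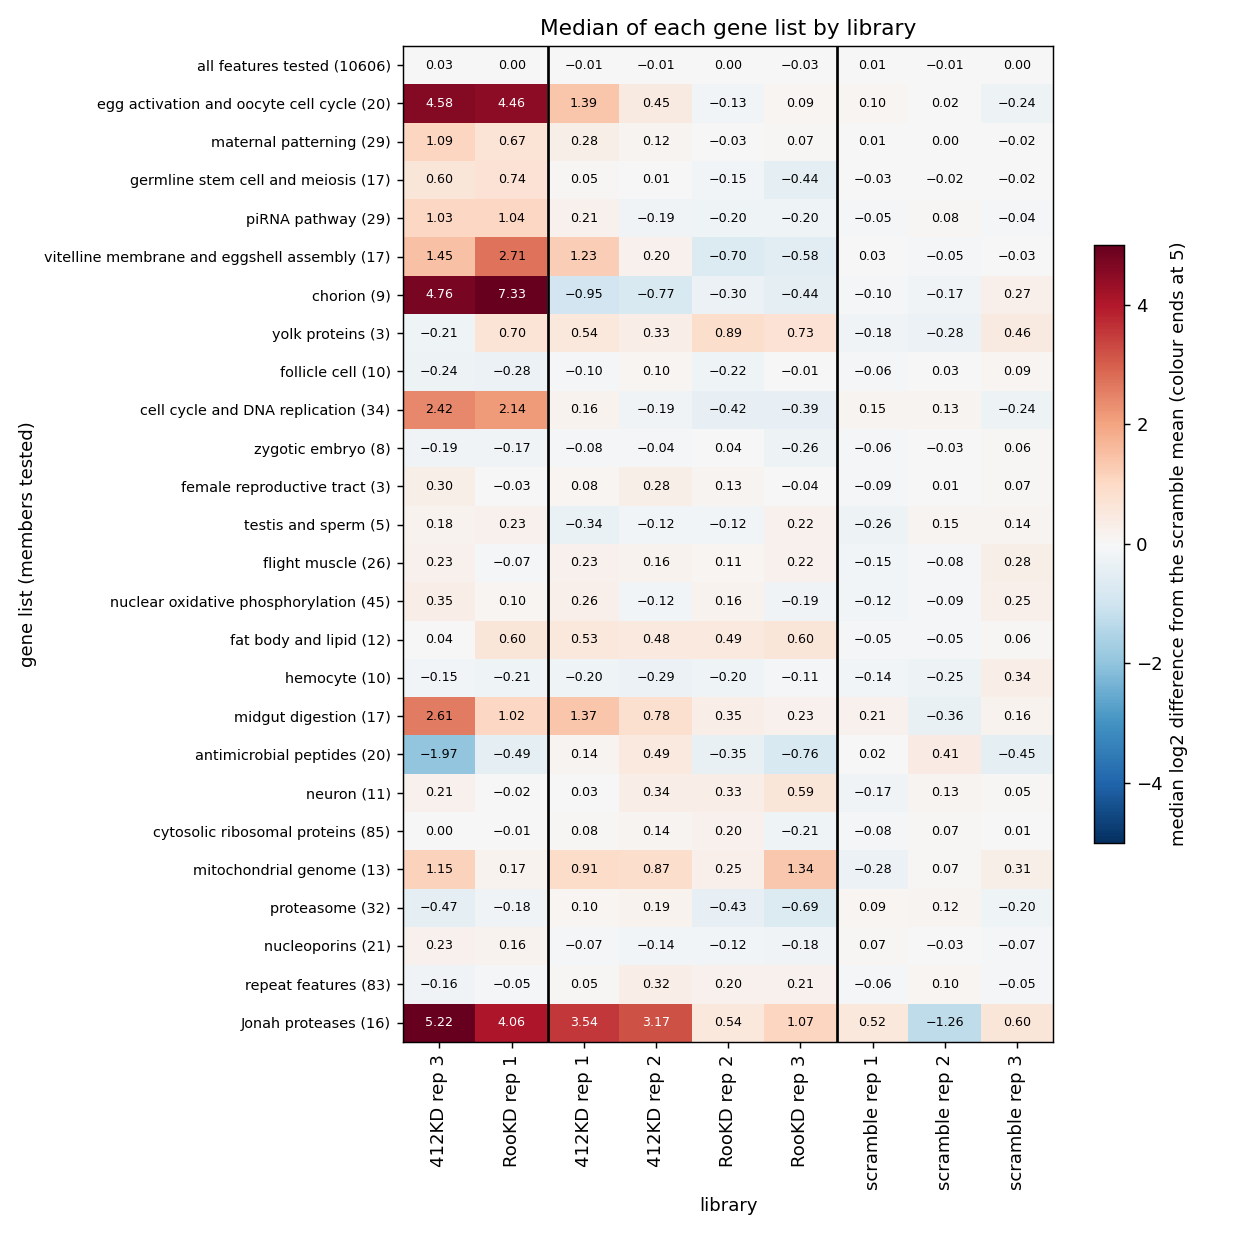
Median log2 difference from the scramble mean of each gene list (rows, with the number of members tested) in each library (columns; black lines divide yl-high, other hairpin and scramble libraries). The oocyte list stands at 4.58 and 4.46 in the yl-high libraries and at 1.39 in 412KD replicate 1, while the flight muscle and ribosomal protein lists lie between −0.21 and 0.28 in all 9.

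Several germline genes have a relative that most tissues use, and their levels can be compared per length in the FPKM values deposited by the authors. The egg thioredoxin dhd stood at 229 and 191 FPKM in the yl-high libraries, against 17.3, 1.07, 0.114 and 0.525 FPKM in the other hairpin libraries. The general thioredoxin Trx-2 stood at 101 and 141 FPKM in the yl-high libraries, against 137, 143, 148 and 106 FPKM in the other hairpin libraries. The FPKM of dhd was thus above that of Trx-2 in both yl-high libraries and below it in the other 7.

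The remaining maternal forms stayed below their relatives everywhere. The maternal alphaTub67C stood at 23.1 and 19.9 FPKM in the yl-high libraries, where the general alphaTub84B stood at 483 and 582 FPKM. The maternal gamma-tubulin gammaTub37C stood at 6.52 and 3.76 FPKM in the yl-high libraries, where the general gammaTub23C stood at 9.86 and 12.01 FPKM. The gamma-tubulin pair was chosen after its values were seen, and reads shared by close relatives could have been split between them by the authors' counting.

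**Figure D3:**
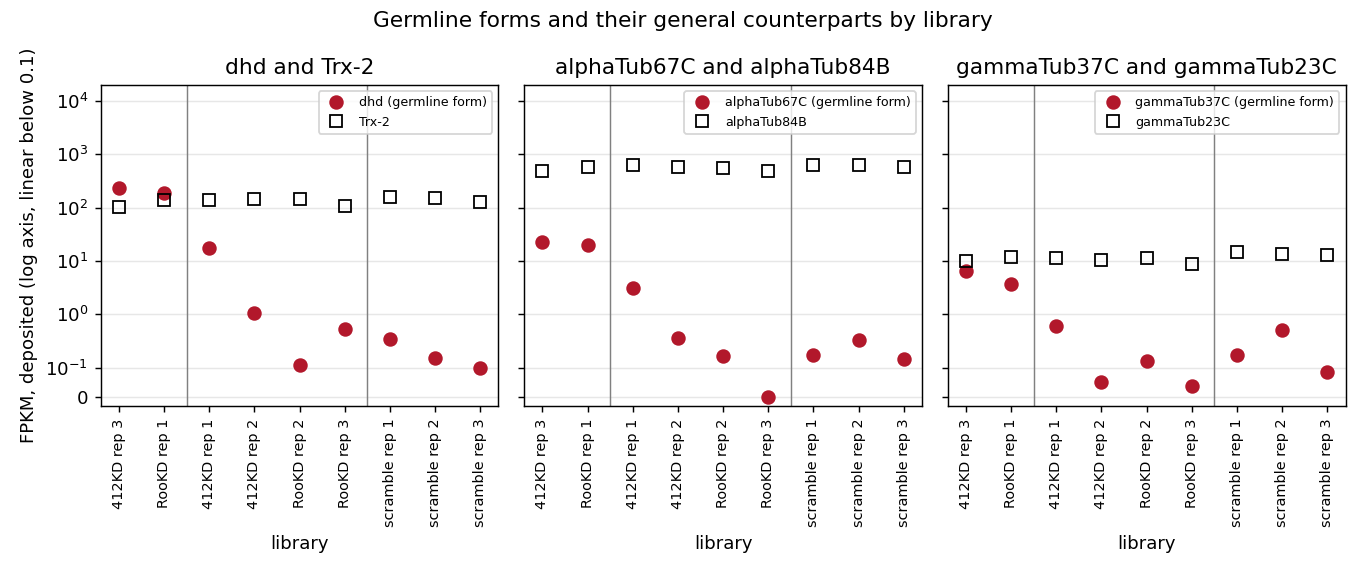
FPKM deposited by the authors (log axis, linear below 0.1) of 3 germline forms (filled circles) and their general counterparts (open squares) in each library. The filled circles are highest in the 2 yl-high libraries at the left, and of the 3 pairs only dhd, at 229 and 191, lies above its counterpart there.

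In the eggshell genes the yl-high libraries differed from each other. Of 11 chorion genes found, which follicle cells express at the end of oogenesis, 9 were tested. All 9 were among the higher features, beside 2.98% of all features tested, with a median log2 difference of 8.19. Members with hardly a read elsewhere, such as Cp15 and Cp36, entered the test only through the yl-high libraries. That count was thus largely fixed in advance and is no support. Cp36 (chromosome X, 8479319 to 8480523) had 6798 and 724 reads in the yl-high libraries, against 0, 1, 1 and 1 in the other hairpin libraries and 9, 7 and 11 in scramble. Cp38 had 9205 and 1235 reads in the yl-high libraries, against 1, 2, 3 and 2 in the other hairpin libraries and 4, 3 and 14 in scramble. Cp15 (chromosome 3L, 8728481 to 8729066) had 8736 and 2396 reads in the yl-high libraries, against 0, 4, 1 and 0 in the other hairpin libraries and 1, 8 and 0 in scramble. All of these were highest in the 412KD library.

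Cp19, Cp16, Cp18 and Cp7Fa had the opposite order, the last of them a gene of the X cluster. Cp18 had 141 and 266 reads in the yl-high libraries and Cp7Fa had 64 and 200, both chosen after their values were seen. Cp19 had 33 and 1404 reads in the yl-high libraries, against 1, 2, 0 and 0 in the other hairpin libraries and 0 in each scramble library. Cp16 had 52 and 474 reads in the yl-high libraries, against 0, 2, 0 and 0 in the other hairpin libraries and 0, 0 and 1 in scramble. Cp7Fc, from the X cluster and chosen after its values were seen, was again highest in the 412KD library, with 426 and 3 reads in the yl-high libraries, against 0, 1, 1 and 0 in the other hairpin libraries. Cp7Fb of the same cluster had that order too, with 367 and 74 reads in the yl-high libraries. Of the chorion reads of the X and 3L clusters together, the X cluster held 65.3% in 412KD replicate 3 (exact 95% interval 64.7% to 65.9%, 25822 reads) and 33.0% in RooKD replicate 1 (31.9% to 34.1%, 6776 reads). These intervals too cover counting error only, and the shares compare 1 library with 1 other. The peroxidase gene Pxt, the tested member outside both clusters, had 1717 and 894 reads in the yl-high libraries, against 115, 5, 2 and 4 in the other hairpin libraries, the order of the germline genes.

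Genes of the vitelline membrane, which is laid down before the chorion, separated the libraries in yet another way. Vm26Aa had 5 and 336 reads in the yl-high libraries, against 541, 3, 0 and 0 in the other hairpin libraries and 10, 1 and 3 in scramble. Vm26Ab had 9 and 211 reads in the yl-high libraries, against 439, 7, 0 and 1 in the other hairpin libraries and 6, 3 and 5 in scramble. Vm34Ca had 19 and 166 reads in the yl-high libraries, against 270, 0, 1 and 0 in the other hairpin libraries and 3, 3 and 0 in scramble. Vm26Ab and Vm34Ca were chosen after their values were seen. For all 3 genes 412KD replicate 1 was the highest library, RooKD replicate 1 the second, and 412KD replicate 3, the library with the most reads of yl, had under 20. Added up, these genes had 33 and 713 reads in the yl-high libraries, against 1250, 10, 1 and 1 in the other hairpin libraries and 19, 7 and 8 in scramble.

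In 412KD replicate 1 the chorion clusters together had 24 reads, beside 1250 reads of the 3 vitelline membrane genes. The same sums were 25822 chorion reads beside 33 vitelline membrane reads in 412KD replicate 3, and 6776 beside 713 in RooKD replicate 1. In the vitelline membrane and eggshell assembly list as a whole, 4 of 17 tested members were among the higher features, beside 2.98% of all features tested. These were dec, clos, Femcoat and yellow-g. Components that nurse cells or the oocyte make, fs(1)N and fs(1)M3, were nearly level between the yl-high libraries: fs(1)M3 had 176 and 178 reads there, against 102, 14, 7 and 0 in the other hairpin libraries and 21, 11 and 14 in scramble.

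**Figure D4:**
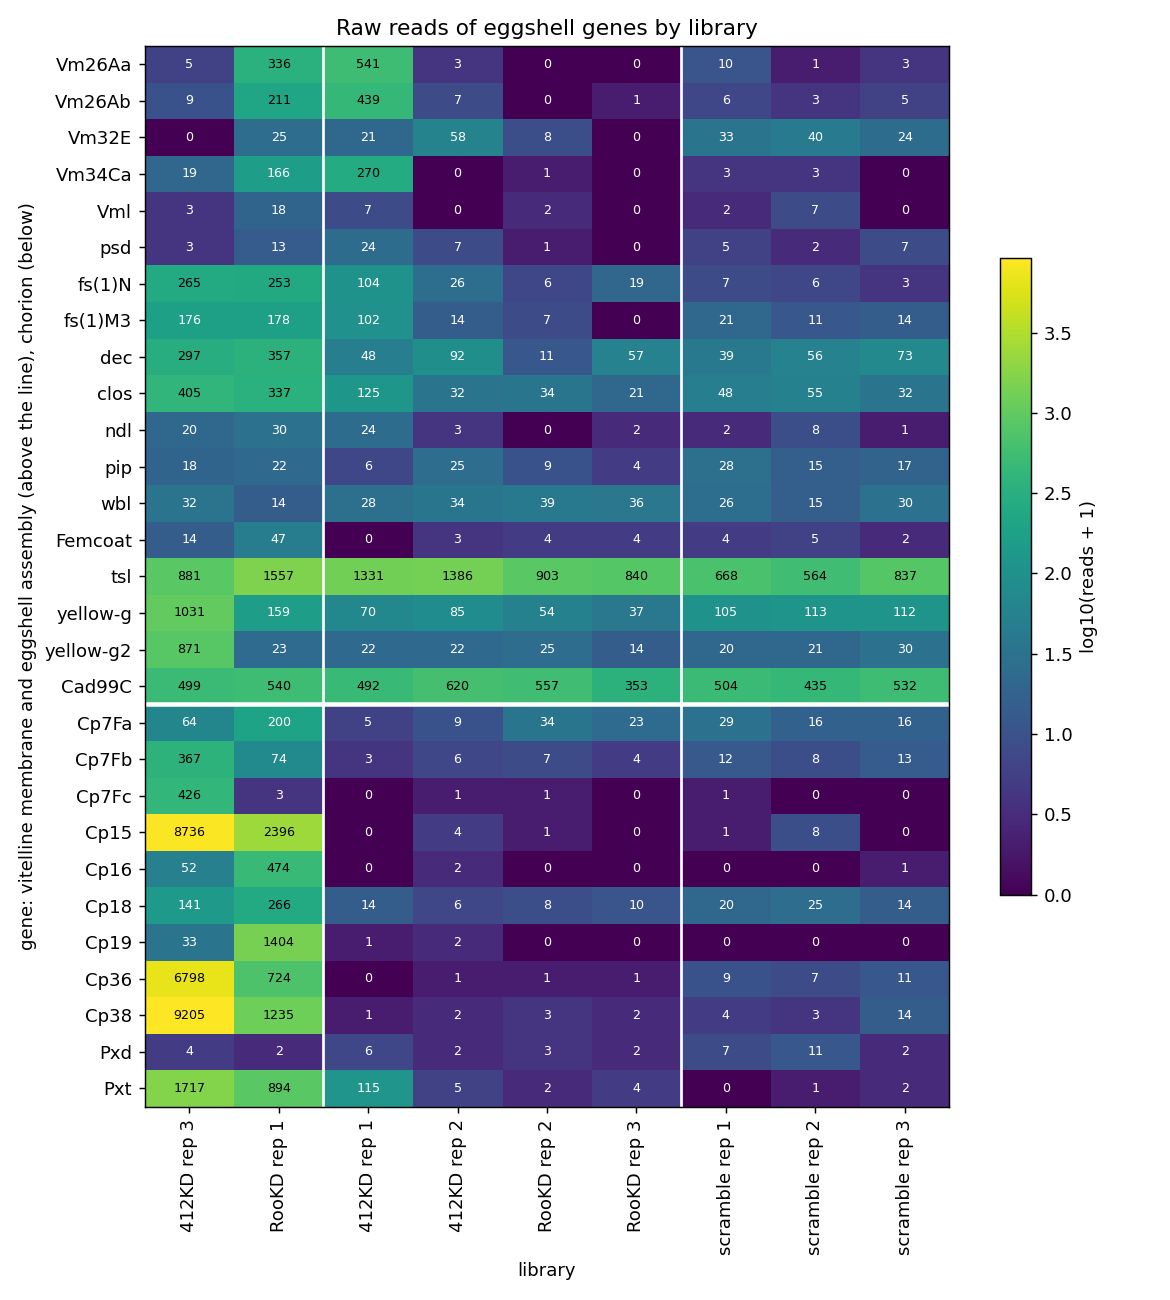
Raw reads of the genes of vitelline membrane and eggshell assembly (above the white line) and of the chorion (below it) in each library, with colour as log10(reads + 1). Vm26Aa reads 5 and 336 in the yl-high libraries and 541 in 412KD replicate 1, while Cp15 reads 8736 and 2396 in the yl-high libraries and 0 in 412KD replicate 1.

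The contrast between the germline and the eggshell genes can be put as the log2 difference of 412KD replicate 3 from RooKD replicate 1. Over the 20 oocyte genes it ran from −0.22 to 0.83, with a median of 0.31 and with yl at the upper end. Over the 34 cell cycle genes it ran from −0.02 to 0.71, with a median of 0.23. Over the 9 chorion genes it ran from −5.46 to 3.09, and over the 17 vitelline membrane and eggshell assembly genes from −5.68 to 4.99. The first pair of lists thus kept nearly the same ratio between the yl-high libraries, and the eggshell lists did not. Each value compares 1 library with 1 other and has no replicate check.

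**Figure D5:**
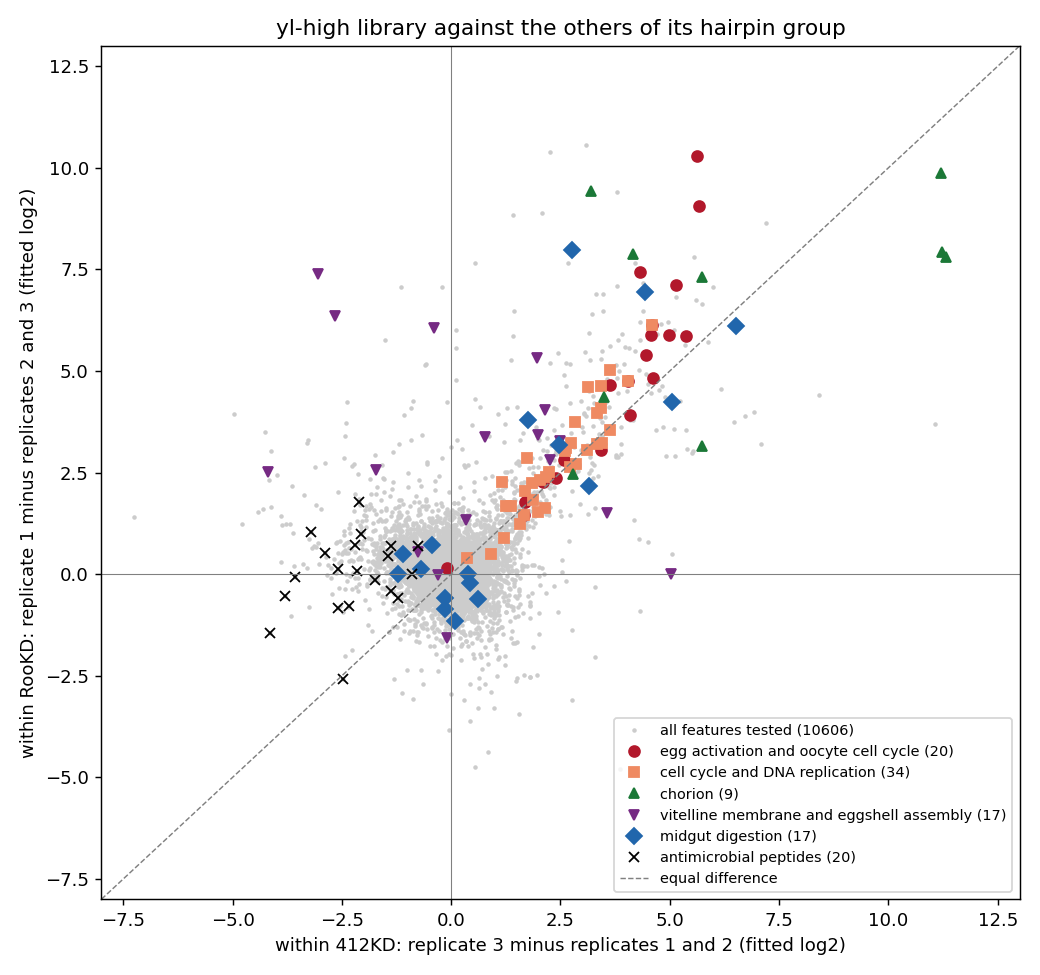
Difference in log2 CPM (prior count of 2) of 412KD replicate 3 from the mean of 412KD replicates 1 and 2 (x axis) against that of RooKD replicate 1 from the mean of RooKD replicates 2 and 3 (y axis). The axis labels call these differences fitted, but they do not come from a fit. All 10606 features tested are shown, with 6 gene lists coloured and a dashed line of equal difference. Oocyte and cell cycle genes lie at the upper right, some well above the line (dhd at 5.67 and 9.05). Vm26Aa, Vm26Ab and Vm34Ca lie at the upper left, and antimicrobial peptide genes lie mostly left of 0. Values of genes with no read in a group depend on the prior count.

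The library 412KD replicate 1, which the threshold placed among the others, carried part of the same pattern. Of the 20 oocyte genes 11, yl among them, were over 1 log2 unit higher in it than in 412KD replicate 2. The median over the list was 2.03. Of the 316 higher features 84, or 26.6%, were over 1 log2 unit higher in 412KD replicate 1 than in replicate 2, against 304 of all 10606 tested, or 2.87%. The cell cycle list differed less between these libraries, with 8 of 34 members past 1 log2 unit and a median of 0.30. Without 412KD replicate 1, 361 features were higher in the yl-high libraries and the median of the oocyte list was 5.91.

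Most lists of other tissues and of general cell functions held no passing feature. Over all features tested 2.98% were higher and 0.0849% lower, so a short list can hold none without standing apart. No tested member of the lists of yolk proteins (3), follicle cell regulators (10), zygotic embryo genes (8), the female reproductive tract (3), testis and sperm (5), flight muscle (26), nuclear oxidative phosphorylation (45), fat body and lipid (12), hemocytes (10), neurons (11), the mitochondrial genome (13), proteasome (32) or nucleoporins (21) was among the higher or the lower features. The median log2 differences of these lists lay between −0.42 for the yolk proteins and 0.27 for the nucleoporins. The 7 male accessory gland genes found were too low to be tested, with 3 to 35 reads in all per library.

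The tissue label held for its markers. The myosin heavy chain gene Mhc had 61500 and 43872 reads in the yl-high libraries, against 53400, 54167, 42370 and 37790 in the other hairpin libraries and 45124, 36303 and 52226 in scramble. The titin-like gene sls had 59132 and 52369 reads in the yl-high libraries, against 46905, 62927, 41172 and 44203 in the other hairpin libraries. Yp2, a yolk protein that fat body and follicle cells make, had 265405 and 663943 reads in the yl-high libraries, against 482302, 541768, 599421 and 475200 in the other hairpin libraries, with the lowest hairpin value in a yl-high library. The transcription factor gene tj of somatic ovary cells had 381 and 466 reads in the yl-high libraries, against 389, 336, 505 and 339 in the other hairpin libraries and 211, 209 and 563 in scramble.

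Digestive genes of the midgut moved with the germline genes in part. Of 17 tested members of the midgut list 7 were among the higher features, beside 2.98% of all features tested, and the median was 0.13. The serine proteases of the Jonah family, grouped after the data were seen, had 8 of 16 tested members among the higher features. This too stands beside 2.98%, and the median of the family was 2.83. Jon99Fii had 5951 and 7204 reads in the yl-high libraries, against 624, 649, 8 and 0 in the other hairpin libraries and 232, 0 and 215 in scramble. Jon99Fi had 6565 and 5730 reads in the yl-high libraries, against 1211, 1262, 3 and 1 in the other hairpin libraries and 331, 6 and 322 in scramble. For both, RooKD replicates 2 and 3 and scramble replicate 2 were near 0 and the remaining libraries lay in between.

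The alpha-mannosidase gene LManVI had 2577 and 807 reads in the yl-high libraries, against 46, 3, 0 and 0 in the other hairpin libraries and 16, 0 and 0 in scramble. The gastric lipase gene mag had 2356 and 406 reads in the yl-high libraries, against 203, 46, 3 and 0 in the other hairpin libraries and 15, 2 and 29 in scramble. The homeotic gene lab, which marks acid-secreting cells of the midgut, had 111 and 64 reads in the yl-high libraries, against 19, 4, 17 and 6 in the other hairpin libraries and 8, 13 and 33 in scramble. The most abundant digestive genes did not follow. Jon65Aiv had 140421 and 79573 reads in the yl-high libraries, against 141867, 136725, 98515 and 96902 in the other hairpin libraries. The amylase gene Amy-p had 51989 and 45229 reads in the yl-high libraries, against 108254, 111887, 49921 and 27038 in the other hairpin libraries. The part of the midgut reads in the differences of other genes was not tested.

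Among the 15 largest differences with a mean of at least 50 scaled reads were several genes outside the lists. CG12057 had 4791 and 32 reads in the yl-high libraries, against 0, 0, 0 and 1 in the other hairpin libraries and 23, 2 and 0 in scramble. CG4009 had 756 and 41 reads in the yl-high libraries, against 0 in each other hairpin library and 0, 1 and 0 in scramble, at least 460-fold higher within 412KD and at least 22.3-fold higher within RooKD. CG13114 had 1041 and 28 reads in the yl-high libraries, against 4, 6, 1 and 1 in the other hairpin libraries and 8, 3 and 7 in scramble. CG11381 had 524 and 36 reads in the yl-high libraries, against 3, 2, 1 and 0 in the other hairpin libraries and 4, 2 and 7 in scramble. All 4 were far higher in 412KD replicate 3 than in RooKD replicate 1, as Cp36 and Cp38 were. CG6927, with 419 and 329 reads in the yl-high libraries, against 10, 3, 0 and 2 in the other hairpin libraries, and CG18585, with 455 and 272 reads in the yl-high libraries, against 5, 4, 0 and 0, were closer to level between them.

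Only 4 of the 9 lower features had a mean of at least 50 scaled reads. AttA, which encodes the antibacterial peptide attacin, stood at 7.15 and 3.50 TMM-scaled CPM in the yl-high libraries, against 32.6, 49.3, 23.3 and 19.5 in the other hairpin libraries and 3.997, 5.77 and 3.21 in scramble, a log2 difference of −2.59 ± 0.24 (SE). The scramble values lay within or near those of the yl-high libraries. CecB, a cecropin, had 11 and 120 reads in the yl-high libraries, against 140, 316, 220 and 326 in the other hairpin libraries and 228, 247 and 152 in scramble. CG18107 had 15 and 25 reads in the yl-high libraries, against 78, 68, 76 and 82 in the other hairpin libraries and 86, 53 and 89 in scramble. CG15829 had 85 and 64 reads in the yl-high libraries, against 211, 177, 299 and 349 in the other hairpin libraries and 286, 167 and 233 in scramble. AttA and CecB were the 2 lower features among the 20 antimicrobial peptide genes tested, beside 0.0849% of all features tested. The median of these genes was −0.93. That median joins unlike values, −2.18 within 412KD and 0.03 within RooKD. The count of 9 lower features was 18 without 412KD replicate 1, 15 without 412KD replicate 2, 24 without RooKD replicate 2 and 15 without RooKD replicate 3. Reads of near-identical family members, in the attacins, cecropins, Jonah proteases and chorion genes alike, may have been split between them by the authors' counting.

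Whether the yl-high difference was the same in both hairpin groups was the comparison that allowed a test. It set the difference of 412KD replicate 3 from 412KD replicates 1 and 2 against that of RooKD replicate 1 from RooKD replicates 2 and 3, in a fit of all 9 libraries. Each yl-high cell of this fit is 1 library, which is assumed to vary like the others. With edgeR's quasi-likelihood test, two-sided, at a Benjamini-Hochberg adjusted p of 0.05, 199 of 11291 features, or 1.76%, differed: 28 (0.248%) were higher in the 412KD difference and 171 (1.51%) lower. None of the 20 oocyte genes, the 34 cell cycle genes, the 29 maternal patterning genes or the 19 germline stem cell and meiosis genes tested was called, which does not show that their differences were equal. At an unadjusted p under 0.05 edgeR had 0, 0, 3 and 1 of them, in the order given, beside 1669 of all 11291 features. DESeq2 called 0 in each list. Of the 198 called features that the 6-library fit also held, 4 were among the 316 higher features and 0 among the 9 lower ones. The rule of size asks for the same direction in both hairpin groups. A small overlap was therefore built in, and nothing is read from it.

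The count depended on single libraries, and the 7 outside the yl-high pair were left out in turn. Each yl-high library is the only one of its cell and was not left out here. Ranges given below for libraries left out cover these 7 alone. The count was 58 without 412KD replicate 1, 126 without 412KD replicate 2, 374 without RooKD replicate 2 and 79 without RooKD replicate 3. It was 64, 105 and 433 without scramble replicate 1, 2 and 3, while DESeq2 called 585.

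Of the chorion list 1 of 11 genes tested was called, and of the vitelline membrane and eggshell assembly list 2 of 18, beside 1.76% of all features. Cp36, Cp38, Cp15 and Vm26Aa were not called (edgeR adjusted p = 0.191, 0.224, 1 and 0.365). The eggshell gene yellow-g2 had 871 and 23 reads in the yl-high libraries, against 22, 22, 25 and 14 in the other hairpin libraries and 20, 21 and 30 in scramble. The 412KD difference exceeded the RooKD difference by 5.15 ± 0.57 log2 units (edgeR adjusted p = 0.00625, and 0.00375 to 0.0224 when each of 7 libraries was left out; ± gives the SE). 412KD replicate 3 alone lay above the rest. Its neighbour in the family, yellow-g, had 1031 and 159 reads in the yl-high libraries, against 70, 85, 54 and 37 in the other hairpin libraries and 105, 113 and 112 in scramble. Its edgeR adjusted p was 0.0319, which ranged from 0.0240 to 0.0787 when each of the same 7 libraries was left out. Cp19 was called in the other direction, with an edgeR adjusted p of 0.0373 that ranged from 0.0247 to 0.184 over the same 7 fits.

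Of the 171 features on the lower side, 170 were also in the 6-library fit. In 162 of those the log2 CPM of the yl-high library lay below the mean of the others within 412KD and above it within RooKD. On the higher side 25 of 28 had the reverse signs. Features were called for a large gap between these differences, so opposite signs were largely built in. Nothing is read from either count. Of 20 antimicrobial peptide genes tested 3 were called, AttC, DptA and DptB, all on the lower side, beside 1.76% of all features. AttC had 2315 and 12238 reads in the yl-high libraries, against 8519, 18855, 9685 and 8568 in the other hairpin libraries and 13981, 12048 and 11710 in scramble. Its edgeR adjusted p was 0.0142, from 0.00931 to 0.0511 when each library was left out. DptA had 3478 and 18293 reads in the yl-high libraries, against 17790, 29936, 11665 and 9221 in the other hairpin libraries and 34158, 25479 and 14917 in scramble, with an edgeR adjusted p of 0.0262, from 0.00215 to 0.0986 when each library was left out. For AttC and DptA, 412KD replicate 3 was the lowest of all 9 libraries, while RooKD replicate 1 was the highest of the RooKD libraries. In the fat body list 2 of 12 genes tested were called: bmm, a triglyceride lipase, was lower (edgeR adjusted p = 0.0380, from 0.00507 to 0.114 when each library was left out) and the lipid droplet coat gene Lsd-1 was higher (0.0340, from 0.00512 to 0.0958). The glycerol phosphate acyltransferase gene mino, the 1 call among 29 genes of the piRNA list, was lower (0.0142, from 0.00925 to 0.0539).

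The largest differences on the higher side were those of CG10163, MtnC, LysD, yellow-g2 and CG6295. The digestive lysozyme gene LysD had 29304 and 952 reads in the yl-high libraries, against 13040, 16761, 15260 and 17325 in the other hairpin libraries and 9936, 5150 and 11413 in scramble. RooKD replicate 1 was the lowest library by far, and the difference of 5.20 on the log2 scale had an edgeR adjusted p of 0.00903, from 0.00215 to 0.0425 when each library was left out. CG6295 had 36134 and 2985 reads in the yl-high libraries, against 10990, 11293, 26027 and 26778 in the other hairpin libraries and 5195, 2194 and 5103 in scramble. The metallothionein gene MtnC had 203 and 26 reads in the yl-high libraries, against 6, 9, 50 and 34 in the other hairpin libraries and 5, 7 and 22 in scramble. CG10163 had 99 and 3 reads in the yl-high libraries, against 4, 13, 18 and 13 in the other hairpin libraries and 4, 10 and 4 in scramble.

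The largest on the lower side were mthl8, Cp19, Amyrel, CG33337 and CG18417, all with 0 to 2 reads in RooKD replicates 2 and 3. The receptor gene mthl8 had 253 and 272 reads in the yl-high libraries, against 220, 319, 0 and 0 in the other hairpin libraries and 25, 16 and 6 in scramble. Its fold in RooKD replicate 1 over the other RooKD libraries had a lower 95% counting limit of 120. Within 412KD the yl-high library stood at 0.857 of the others (95% counting interval 0.735 to 0.997). CG18417 had the same shape, with 53 and 38 reads in the yl-high libraries, against 26, 40, 0 and 0 in the other hairpin libraries and 10, 5 and 9 in scramble. For this pair of genes the reads of RooKD replicate 1 lay within the range of the 412KD libraries. The amylase-related gene Amyrel had 4 and 205 reads in the yl-high libraries, against 23, 8, 2 and 1 in the other hairpin libraries and 2, 1 and 6 in scramble. CG33337 had 9 and 23 reads in the yl-high libraries, against 76, 121, 1 and 0 in the other hairpin libraries and 14, 13 and 5 in scramble.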

How the data were processed

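RNA from pooled female thoraces was sequenced, paired-end, in 9 libraries. The submitters' processing notes name HISAT2, DESeq2 and build dm6, with no versions. The sources used here do not give how reads were counted or whether strand was used. In 1 table per hairpin, the authors deposited raw counts for genes and repeats, beside FPKM values, per the file headers. The 13765 features in both tables were joined. 6 low-complexity features, with 0.0019% to 0.244% of the reads, were left out. FPKM served only to compare levels between genes. Coordinates are those of the authors' tables.

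Counts were analysed with edgeR 4.0.16 in R 4.3.3 (TMM, filterByExpr, robust quasi-likelihood), with the hairpin group as a term. Log2 differences come from the 6 hairpin libraries (10606 features) and are descriptions. The rule of size asks for over 1 log2 unit, at a prior count of 2, beyond both other libraries of the hairpin group, in both groups. The difference between hairpin groups was tested over all 9 libraries in 5 cells. Its p-values reflect only how these pools varied, which may be technical. The fits were tested on simulated data.

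Named genes are the 5 markers, the 15 largest higher and 10 largest lower differences with a mean of at least 50 scaled reads (4 lower features met it), up to 4 most abundant members per list, and 5 called features each way for the difference between hairpin groups. 1 pair of paralogs is not reported here. Every other gene named was chosen after its values were seen. Members and gene lists were chosen with earlier results of these data known. The 24 lists had 23 symbols that were not found. Alternatives were other size factors, no filter, other thresholds, DESeq2 1.42.0, other sets of libraries, the replicate number as a block and each library left out in turn. For the test of the difference between hairpin groups, neither yl-high library was left out.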

Additional observations from a re-analysis of the deposited data

Results flagged for a closer look

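The edgeR test of the difference between hairpin groups marked 199 features whose yl-high difference was unlike in 412KD and RooKD, and the named ones among them are given here as fitted 412KD minus RooKD log2 differences. Higher within 412KD were CG10163 (5.99), MtnC (5.54), LysD (5.20), yellow-g2 (5.15), CG6295 (4.94), yellow-g (2.03) and Lsd-1 (1.97). Lower within 412KD were mthl8 (−11.32), Cp19 (−9.25), Amyrel (−8.88), CG33337 (−8.56), CG18417 (−7.71), DptA (−3.45), AttC (−2.82), DptB (−2.26), mino (−1.80) and bmm (−1.66). The fitted values of mthl8, Cp19 and CG18417, which had no read in RooKD replicates 2 and 3, depend on the prior count and are no bounds. Adjusted p stayed past the threshold in all 7 fits that left out 1 library for yellow-g2, LysD, mthl8 and CG33337, in 6 of 7 for AttC and CG6295, in 5 of 7 for mino, in 4 of 7 for Amyrel, in 3 of 7 for DptA and yellow-g, in 2 of 7 for Cp19, CG10163, CG18417, MtnC, DptB and Lsd-1, and in 1 of 7 for bmm.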

How the results depend on the processing

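The number of features higher in the yl-high libraries was 316 at the settings reported, 171 at 2 log2 units and 1638 at any amount above 0, and the number lower was 9, 1 and 1264. The lower count was 15 with no filter and 15 at a prior count of 0.5. Leaving out 1 library gave 326 to 595 higher and 15 to 463 lower features; the highest values came without 412KD replicate 3 (595 and 169) and without RooKD replicate 1 (524 and 463), where the rule asks for 1 hairpin group only. The median of the oocyte list, 4.82, ranged from 4.08 to 5.91 when each library was left out, from 4.36 with the replicate block to 4.91 with DESeq2 otherwise, and stayed above 4 in all. The 199 features of the difference between hairpin groups became 585 with DESeq2 and 58 to 433 when each of the 7 libraries outside the yl-high pair was left out. With the replicate number as a block, edgeR called 0 features, with 750 at an unadjusted p under 0.05. Libraries of the same number did not deviate together, with correlations of −0.25 to 0.42 over 9 pairs, so the numbers do not pair the samples. The medians of 7 lists, each within 0.22 of 0 at the settings reported, changed sign in 11 fits. None of the 23 named genes followed did. These were the markers and the largest higher and lower differences, picked for their size, so this is no support. Depth limits the folds of genes with few reads: that of Cp15 within RooKD, 3920, had a counting interval of 702 to 155000.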

Other observations

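The yl-high difference of the proteasome list was unlike in 412KD and RooKD, and the mitochondrial genome list differed between the yl-high libraries. The 32 proteasome genes had a median log2 difference of −0.61 within 412KD and of 0.36 within RooKD. Against the scramble mean, their median was −0.47 and −0.18 in the yl-high libraries and 0.10, 0.19, −0.43 and −0.69 in the other hairpin libraries. The other libraries thus differed more between the hairpin groups than the yl-high libraries did. None of the values against scramble was tested. None of the 32 genes passed the edgeR test of the difference between hairpin groups. At an unadjusted p under 0.05 edgeR had 31 of them, beside 1669 of all 11291 features. DESeq2, which called more features in all than edgeR, called 12 of them. The 13 genes of the mitochondrial genome held 5.31% and 2.86% of reads in the yl-high libraries, against 3.59%, 3.32%, 2.80% and 5.02% in the other hairpin libraries and 2.64%, 2.60% and 3.52% in scramble, with 412KD replicate 3 the highest and RooKD replicate 3 next. All 13 were higher in 412KD replicate 3 than in RooKD replicate 1, by 0.49 to 2.63 log2 units.

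Gnmt and Lsp2, picked from the 12 fat body genes after their values were seen, were lowest in 412KD replicate 3, while the median of that list was 0.04 log2 units from the scramble mean there. Gnmt, a glycine methyltransferase, had 48 and 4327 reads in the yl-high libraries, against 6030, 8031, 1370 and 1290 in the other hairpin libraries and 1110, 1216 and 198 in scramble. The storage protein gene Lsp2 had 17 and 3006 reads in the yl-high libraries, against 479, 189, 469 and 188 in the other hairpin libraries and 548, 1245 and 202 in scramble. Neither difference between hairpin groups passed (edgeR adjusted p = 0.0992 for Gnmt and 0.253 for Lsp2).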
